A study of Mus musculus with 24 samples.

Results

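Transcripts of 10 genes of the insulin-like growth factor (IGF) system were examined in Ku70-/- mouse embryonic fibroblasts (MEFs) exposed to potassium bromate (KBrO3), to bisphenol A (BPA) or to both. The members were the ligands Igf1 and Igf2, the receptors Igf1r and Igf2r and the binding proteins Igfbp2, Igfbp3, Igfbp4, Igfbp5, Igfbp6 and Igfbp7. They were chosen by name, as every array probe whose gene name is a member or an older synonym of one, which gave 19 of the 41174 probes other than controls and 10 of 27962 gene names. Each member is described by 1 probe, the brightest on average over the 24 arrays, and any other probes of the gene are then set beside it.

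IGF1 and IGF2 are secreted growth factors that bind the receptor tyrosine kinase IGF1R and signal for growth and survival through insulin receptor substrates, PI3K, AKT and the TOR kinase. IGF2R, the cation-independent mannose 6-phosphate receptor, takes IGF2 to lysosomes for breakdown. The binding proteins hold IGFs outside the cell, lengthen their life or keep them from the receptor, and release them when proteases such as PAPP-A cut the binding protein. Fibroblasts secrete both ligands and several of the binding proteins, and Igfbp3, Igfbp5 and Igfbp7 are known for their expression in senescent or growth-arrested fibroblasts.

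All cells, controls included, were immortalized MEFs with the Ku70 (Xrcc6) gene deleted, so that non-homologous end joining, a main repair pathway for DNA double-strand breaks, was impaired in every group. KBrO3, an oxidizing agent, was given at 20 mM for 1 hr and the cells were then left for 3 or 23 hr, which gives the 4 hr and 24 hr groups of KBrO3 alone. For co-exposure, 150 μM BPA was added 1 hr before KBrO3 and was present until harvest. BPA alone was also given at 150 μM in groups labelled 4 hr and 24 hr, although the study's methods give these cells 1 hr longer with BPA than the labels. Each of the 8 groups had 3 arrays, from replicates that the methods call biological. KBrO3 alone and co-exposure were run with 3 untreated arrays in a first set of 15 arrays, and BPA alone with 3 other untreated arrays in a second set of 9. No untreated group was labelled 24 hr, so both time points were compared with the same controls of their set, and time in culture and treatment cannot be told apart at 24 hr. The study refers to these cells as a single cell line.

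Levels are given as log2 of the background-corrected signal relative to the 75th percentile of all spots on the same array, so 0 is the level of that percentile and every difference is relative to the rest of the array. A level is not compared between genes, because probes differ in how well they bind. In the first set 57.7% to 68.1% of spots were well above background (median 62.2%), and in the second set 76.4% to 79.4% (median 77.7%). The median residual SD over probes was 0.107 log2 units among the first 15 arrays and 0.34 among the other 9, so that small differences could be called in the first set and not in the second. All 12 fibroblast markers on a list that includes Col1a1, Vim, Pdgfra and Dcn were well above background on every control array of both sets, beside 3 of 6 and 5 of 6 epithelial, 1 of 4 and 3 of 4 endothelial, 1 of 4 and 2 of 4 blood, 0 of 4 and 2 of 4 skeletal muscle and 1 of 4 and 2 of 4 fat markers. The part of such transcripts in the results was not tested. An Xrcc6 probe was well above background on all 24 arrays, but where it lies relative to the deletion is not known, so it checks no label. These are cultures of many cells, in which fewer cells making a transcript and less of it per cell cannot be told apart.

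The sequences shown first are those of probes of a ligand and of a binding protein with large falls at 24 hr. Each was read as coding because a single reading frame held no stop codon, and its place in the transcript was not checked. Capitals mark the cysteine codons TGT or TGC in the only reading frame without a stop codon, since cysteine bridges hold the folded core of both protein families. The Igf1 probe lies on the plus strand at chr10:87471884-87471943 of mouse build mm7, the build named in the headers of the first set's arrays, from which the probe coordinates were taken (those of the second set name mm9), and holds 4 such codons. The Igfbp4 probe shown, the dimmer of its 2, lies on the plus strand at chr11:99157316-99157375 of the same build and holds 1.
Igf1 probe: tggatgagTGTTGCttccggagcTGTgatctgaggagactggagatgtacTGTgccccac
Igfbp4 probe: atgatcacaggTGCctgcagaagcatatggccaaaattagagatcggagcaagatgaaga

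The bases before the transcription start are shown for 3 members with the largest measured falls in co-exposed cells at 24 hr (Igfbp3, Igf1 and Igfbp7) and for Igfbp5, whose spot was then too dim to rank. Each window holds the 250 bases upstream of the RefSeq start on GRCm38.p6, printed on the gene's strand. Capitals mark matches, on either strand, to any of 7 motifs, namely the TATA box TATAAA, the CCAAT box, the GC box GGGCGG, the forkhead core TGTTTAC, the AP-1 site TGANTCA, the antioxidant response element TGACNNNGC and the nuclear receptor half-site AGGTCA. The windows are chr10:87860861-87861110 (plus strand) for Igf1, chr11:7213924-7214173 (minus strand) for Igfbp3, chr1:72874866-72875115 (minus strand) for Igfbp5 and chr5:77408046-77408295 (minus strand) for Igfbp7.
Igf1 promoter: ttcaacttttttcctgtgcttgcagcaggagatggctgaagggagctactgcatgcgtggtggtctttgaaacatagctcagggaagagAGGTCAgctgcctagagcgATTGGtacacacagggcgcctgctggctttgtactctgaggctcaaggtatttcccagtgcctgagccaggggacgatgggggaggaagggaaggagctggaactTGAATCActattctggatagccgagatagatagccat
Igfbp3 promoter: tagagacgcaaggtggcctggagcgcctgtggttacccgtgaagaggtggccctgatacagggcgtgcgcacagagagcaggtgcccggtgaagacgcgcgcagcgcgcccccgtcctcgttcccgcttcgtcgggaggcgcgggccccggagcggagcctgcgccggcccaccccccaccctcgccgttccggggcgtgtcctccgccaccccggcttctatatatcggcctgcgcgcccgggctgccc
Igfbp5 promoter: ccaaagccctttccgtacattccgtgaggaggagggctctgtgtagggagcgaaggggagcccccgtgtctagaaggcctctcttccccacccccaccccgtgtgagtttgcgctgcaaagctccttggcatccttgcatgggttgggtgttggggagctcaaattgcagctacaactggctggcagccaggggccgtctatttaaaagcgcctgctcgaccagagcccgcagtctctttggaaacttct
Igfbp7 promoter: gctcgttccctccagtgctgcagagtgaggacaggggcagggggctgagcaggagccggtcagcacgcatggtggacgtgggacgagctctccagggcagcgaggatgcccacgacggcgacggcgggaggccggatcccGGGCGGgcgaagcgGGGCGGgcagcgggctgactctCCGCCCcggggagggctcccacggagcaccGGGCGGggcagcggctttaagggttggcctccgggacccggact

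The 4 promoters shared no match among these motifs. Igfbp7 held the GC box GGGCGG at 4 places, Igf1 held one AP-1 match, one CCAAT on the other strand and one nuclear receptor half-site, and the Igfbp3 and Igfbp5 windows held none of the 7. The 10 members had 14 windows, several for some genes, and 6 of the 14 held the GC box (Igf1r, Igf2, Igf2r, Igfbp2 and Igfbp7), beside 32.7% of all 32851 windows of that length. The half-site AGGTCA was in 4 of the 14 windows (Igf1, Igf1r, Igf2r and only 1 of the 4 windows of Igf2), beside 14% of all windows. CCAAT was in 3 of the 14 (Igf1, Igf2 and Igfbp6, beside 33.8% of all windows), TATAAA in 2 (Igfbp4 and Igfbp6, 12.4%) and TGANTCA in 2 (Igf1 and Igfbp2, 6.75%). TGTTTAC and TGACNNNGC, present in 3.17% and 10.2% of all windows, were in no member's window. The median GC content was 66.6% over the members' windows and 52.4% over all. These matches are letters in a window and do not show that a factor binds there.

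In the first set the 10 transcripts lay nearer to control at 4 hr and below it at 24 hr. At 24 hr all 10 fell after KBrO3 alone and all 10 fell after co-exposure, while at 4 hr 3 fell and 1 rose after KBrO3 alone and 4 fell and 1 rose after co-exposure (limma, Benjamini-Hochberg adjusted p under 0.05 over all probes tested). So many genes passed this threshold in the first set that the share of all genes has to stand beside each count. At 24 hr of KBrO3 alone 66.3% of 18443 gene names passed in either direction and 36.7% as lower, and for co-exposure at 24 hr 70.2% passed and 38.8% as lower. At 4 hr 71.1% passed for KBrO3 alone (34.5% higher, 36.6% lower), beside 4 of 10 members, and 78.7% for co-exposure (40.4% higher, 38.3% lower), beside 5 of 10. The members' median log2 fold change at 24 hr was −1.61 for KBrO3 alone and −1.96 for co-exposure, beside −0.07 and −0.11 over all gene names, and at 4 hr it was −0.10 and −0.09 beside 0.05 and 0.05. With normexp, another background correction, the medians over all gene names were −0.44 and −0.43 at 24 hr and −0.42 and −0.41 at 4 hr. The members' medians given above are without this correction, so they are not to be set against these. The Igf2r calls at 24 hr were lost with normexp in both treatments, and with arrays scaled to their medians after co-exposure. Leaving the sign aside, the median size of the log2 difference at 4 hr was 0.178 and 0.156 over the members and 0.558 and 0.709 over all gene names, and at 24 hr 1.61 and 1.96 beside 0.432 and 0.492. The 2 treatments were compared with the same 3 controls, so their values stand side by side and are not independent. By the thresholds of the study's methods (Bonferroni-adjusted p under 0.01 and a fold change over 1.5), 8 members passed as lower at 24 hr of KBrO3 alone beside 10.7% of all gene names, and 9 after co-exposure beside 12%. Igf2r missed these thresholds in both, and Igfbp6 after KBrO3 alone. At 4 hr only Igf1r passed them, in both treatments, beside 15.5% and 18% of gene names as lower. By these thresholds 0 members differed between co-exposure and KBrO3 alone at 4 hr and 2 at 24 hr, and 3 in the interaction described below, beside 5.49%, 6.67% and 4.48% of gene names. None passed for BPA alone at 4 hr, at 24 hr or between the times, beside 0.0886%, 0.0233% and 0.0419%.

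**Figure D1:**
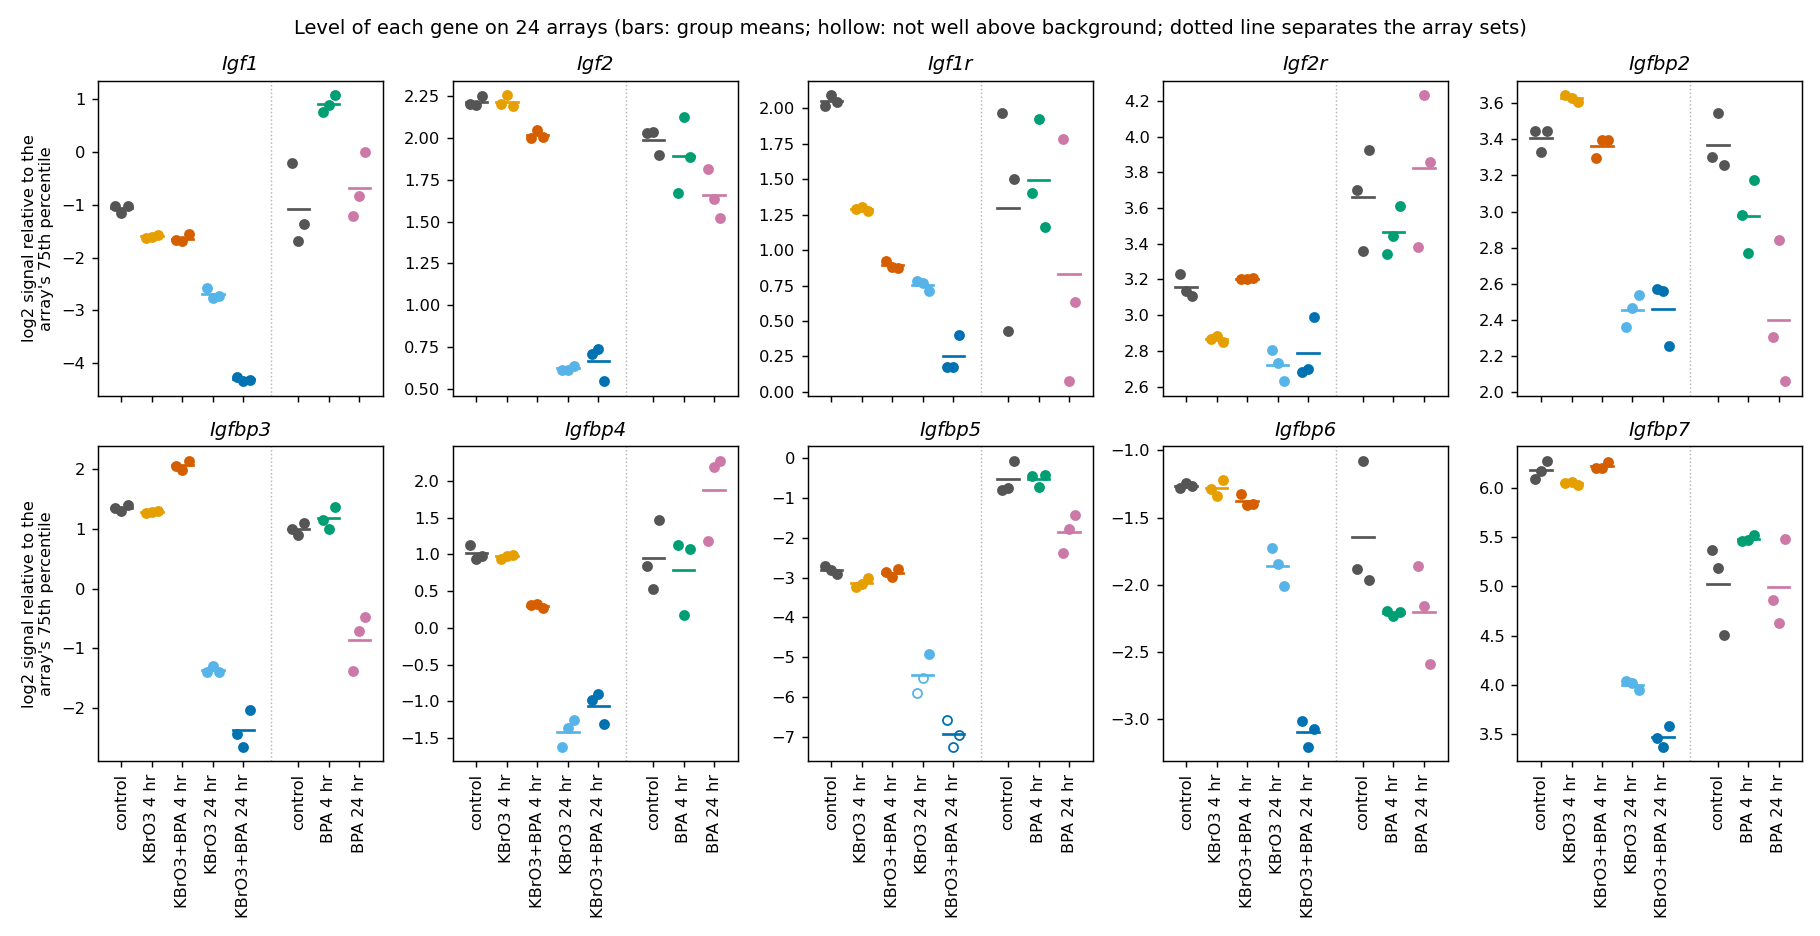
Level of each of the 10 genes (y axis, log2 signal relative to the array's 75th percentile) on each of 24 arrays, grouped by treatment along the x axis, with bars for group means and hollow points for spots not well above background. In the first set (left of the dotted line) both 24 hr groups sit below the controls for all 10 genes.

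Igf1, the main circulating and tissue IGF ligand, had the widest falls among the ligands and receptors at 24 hr. Its 3 control arrays read −1.02, −1.14 and −1.02, and KBrO3 alone gave −1.62, −1.60 and −1.56 at 4 hr and −2.57, −2.76 and −2.72 at 24 hr. Co-exposure gave −1.67, −1.69 and −1.55 at 4 hr and −4.25, −4.35 and −4.31 at 24 hr. The groups therefore stepped down from control to 4 hr to 24 hr with no overlap between times, and the 2 treatments overlapped at 4 hr and were far apart at 24 hr. Igf1 fell by 0.53 ± 0.06 on the log2 scale (SE, n = 3 against 3) at 4 hr of KBrO3 alone and by 0.57 after co-exposure (limma adjusted p = 3.98e-06 and 1.68e-06). At 24 hr it was lower 3.07-fold with KBrO3 alone and 9.44-fold with both agents (limma adjusted p = 2.95e-10 and 4.77e-13).

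Igf2, the fetal-type ligand from an imprinted locus, showed its falls at 24 hr. The control arrays read 2.20, 2.20 and 2.25, and those of KBrO3 alone 2.20, 2.25 and 2.19 at 4 hr and 0.62, 0.62 and 0.64 at 24 hr. Co-exposed arrays read 2.00, 2.05 and 2.00 at 4 hr and 0.71, 0.74 and 0.55 at 24 hr. The 24 hr arrays of both treatments lay far below every 4 hr and control array, and overlapped each other. Igf2 fell 3.02-fold at 24 hr of KBrO3 alone and 2.93-fold after co-exposure (limma adjusted p = 6.62e-11 and 4.74e-11). At 4 hr of KBrO3 alone the difference was 0.00 (limma adjusted p = 0.994), −0.16 with quantile normalization (0.0107) and 0.10 with the mean of its probes (0.00879). At 4 hr of co-exposure Igf2 fell by 0.20 (limma adjusted p = 0.00258), a value that was 0.02 above control with another background correction (normexp), and its second probe was 0.08 above control (limma adjusted p = 0.119), so its direction rests on the correction and the probe used.

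Igf1r, the signalling receptor of both ligands, fell at both times in both treatments. Control arrays read 2.02, 2.09 and 2.05, KBrO3 alone 1.29, 1.30 and 1.28 at 4 hr and 0.78, 0.77 and 0.71 at 24 hr, and co-exposure 0.92, 0.88 and 0.87 at 4 hr and 0.18, 0.18 and 0.40 at 24 hr. For the probe used, named for the clone A330103N21Rik, no group of the first set overlapped another. Its order from high to low was control, KBrO3 alone and co-exposure at 4 hr, then KBrO3 alone and co-exposure at 24 hr. The log2 fold change was −0.76 and −1.16 at 4 hr and −1.30 and −1.80 at 24 hr for KBrO3 alone and co-exposure, which at 24 hr is 2.46-fold and 3.48-fold lower (limma adjusted p between 7.37e-08 and 4.28e-11). On the slide that KBrO3 alone at 4 hr shared with 1 control array, the difference was −0.76. Other Igf1r probes gave other orders of the groups. The probe of the RefSeq transcript had means of −0.46 at 4 hr of co-exposure and −0.24 at 24 hr of KBrO3 alone.

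Igf2r, the lysosomal receptor for IGF2, had the smallest falls of the 10 at 24 hr. Its mean was 3.16 ± 0.06 in controls (SD, n = 3), 2.87 ± 0.02 and 2.72 ± 0.09 at 4 hr and 24 hr of KBrO3 alone and 3.20 ± 0.00367 and 2.79 ± 0.17 after co-exposure. It fell by 0.29 at 4 hr and by 0.44 at 24 hr of KBrO3 alone (limma adjusted p = 0.0036 and 0.00023). After co-exposure the difference was 0.05 at 4 hr (limma adjusted p = 0.579), and it fell by 0.37 at 24 hr (limma adjusted p = 0.000791). The 24 hr fall after co-exposure was −0.05 with arrays scaled to their medians (limma adjusted p = 0.63) and −0.03 with the normexp background correction (0.867), and with normexp the values for KBrO3 alone were −0.04 at 4 hr and −0.14 at 24 hr (0.853 and 0.472).

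The largest falls at 24 hr of KBrO3 alone among members well above background on all arrays were those of the binding proteins Igfbp3, Igfbp4 and Igfbp7, and after co-exposure those of Igfbp3, Igf1 and Igfbp7. Igfbp5 was too dim at 24 hr to be ranked in either treatment. Igfbp2 and Igfbp6 had smaller falls after KBrO3 alone. IGFBP3 is the main carrier of IGFs in serum and IGFBP5 is a binding protein of matrix and bone. IGFBP7 binds IGFs weakly and has been described as a secreted senescence factor.

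The brightest Igfbp3 probe moved in both directions with time after co-exposure. Control arrays read 1.35, 1.29 and 1.39, and co-exposed arrays 2.06, 1.99 and 2.14 at 4 hr and −2.43, −2.65 and −2.03 at 24 hr. With KBrO3 alone the arrays read 1.27, 1.27 and 1.30 at 4 hr and −1.39, −1.29 and −1.40 at 24 hr. Every co-exposed 4 hr array was thus above every control, and every 24 hr array of either treatment was below. Igfbp3 rose by 0.71 ± 0.12 at 4 hr of co-exposure (limma adjusted p = 0.000107), and at 24 hr it had dropped 13.1-fold with both agents and 6.54-fold with KBrO3 alone (limma adjusted p = 4.6e-11 and 1.27e-09). The value for KBrO3 alone at 4 hr was −0.07 (limma adjusted p = 0.618). From 4 hr to 24 hr of co-exposure the fall was 21.6-fold. The second Igfbp3 probe had means of −2.49 in controls and −2.30 at 4 hr of co-exposure, a difference that was not called.

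Igfbp5 was dim in the first set and fell below what the arrays could measure. The control arrays read −2.72, −2.81 and −2.92, those of KBrO3 alone at 24 hr −5.90, −5.51 and −4.91, and the co-exposed arrays at 24 hr −6.56, −7.24 and −6.94. Only 1 of the 3 arrays of KBrO3 alone at 24 hr and none of the 3 co-exposed arrays at 24 hr read the spot well above background, so the fold against the co-exposed group is a bound, and that against KBrO3 alone is a fitted value that rests mostly on dim spots. Igfbp5 at 24 hr was lower by a fitted 6.17-fold with KBrO3 alone and by at least 5.43-fold with both agents (limma adjusted p = 4.22e-07 and 5.45e-09). At 4 hr the values were −0.32 for KBrO3 alone and −0.07 for co-exposure (limma adjusted p = 0.203 and 0.79).

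Igfbp7 had called falls at 24 hr of both treatments. Its control arrays read 6.09, 6.17 and 6.27. At 4 hr the arrays read 6.05, 6.06 and 6.03 for KBrO3 alone and 6.20, 6.20 and 6.26 for co-exposure. At 24 hr they read 4.03, 4.01 and 3.95 for KBrO3 alone and 3.46, 3.37 and 3.58 for co-exposure, and no array of the 3 groups overlapped another group's. The fall at 24 hr was 4.54-fold for KBrO3 alone and 6.55-fold for co-exposure (limma adjusted p = 2.29e-11 and 2.01e-12), and the differences at 4 hr were −0.13 and 0.04 (limma adjusted p = 0.0556 and 0.521), the latter −0.25 with quantile normalization (0.00958).

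Igfbp4, whose protein is the main substrate of PAPP-A, fell after co-exposure already at 4 hr. The controls read 1.13, 0.94 and 0.98, KBrO3 alone 0.94, 0.98 and 1.00 at 4 hr and −1.62, −1.36 and −1.25 at 24 hr, and co-exposure 0.31, 0.33 and 0.27 at 4 hr and −0.99, −0.90 and −1.31 at 24 hr. At 4 hr the co-exposed arrays lay below all others and KBrO3 alone overlapped the controls, and at 24 hr the 2 treatments overlapped each other. Igfbp4 fell by 0.71 ± 0.11 at 4 hr of co-exposure (limma adjusted p = 6.08e-05), against −0.04 for KBrO3 alone (limma adjusted p = 0.739). At 24 hr the fall was 5.38-fold with KBrO3 alone and 4.24-fold with both agents (limma adjusted p = 1.79e-09 and 4.68e-09). The second Igfbp4 probe fell less at 4 hr of co-exposure, from a mean of −0.17 in controls to −0.50.

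Igfbp6, a binding protein that prefers IGF2, differed little at 4 hr and fell far more after co-exposure than after KBrO3 alone at 24 hr. Control arrays read −1.28, −1.24 and −1.27, those of KBrO3 alone at 24 hr −1.73, −1.85 and −2.01 and co-exposed arrays at 24 hr −3.02, −3.21 and −3.08. The 3 groups did not overlap. The falls were 1.52-fold and 3.58-fold (limma adjusted p = 9.35e-06 and 2.78e-10), and the values at 4 hr were −0.02 and −0.11 (limma adjusted p = 0.834 and 0.149).

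Igfbp2, a binding protein of fetal tissues and many tumours, rose slightly at 4 hr of KBrO3 alone and fell at 24 hr. Its mean was 3.41 ± 0.07 in controls (SD, n = 3), 3.63 ± 0.02 at 4 hr and 2.46 ± 0.09 at 24 hr of KBrO3 alone, and 3.36 ± 0.06 and 2.46 ± 0.18 after co-exposure. The rise at 4 hr was 0.22 ± 0.08 (limma adjusted p = 0.0251). It was not called without the first or the second KBrO3 array (limma adjusted p = 0.0627 and 0.0563) or without the second control array (0.0928), and it was −0.01 with quantile normalization. The falls at 24 hr were 1.93-fold and 1.92-fold (limma adjusted p = 4.79e-07 and 4.12e-07).

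**Figure D2:**
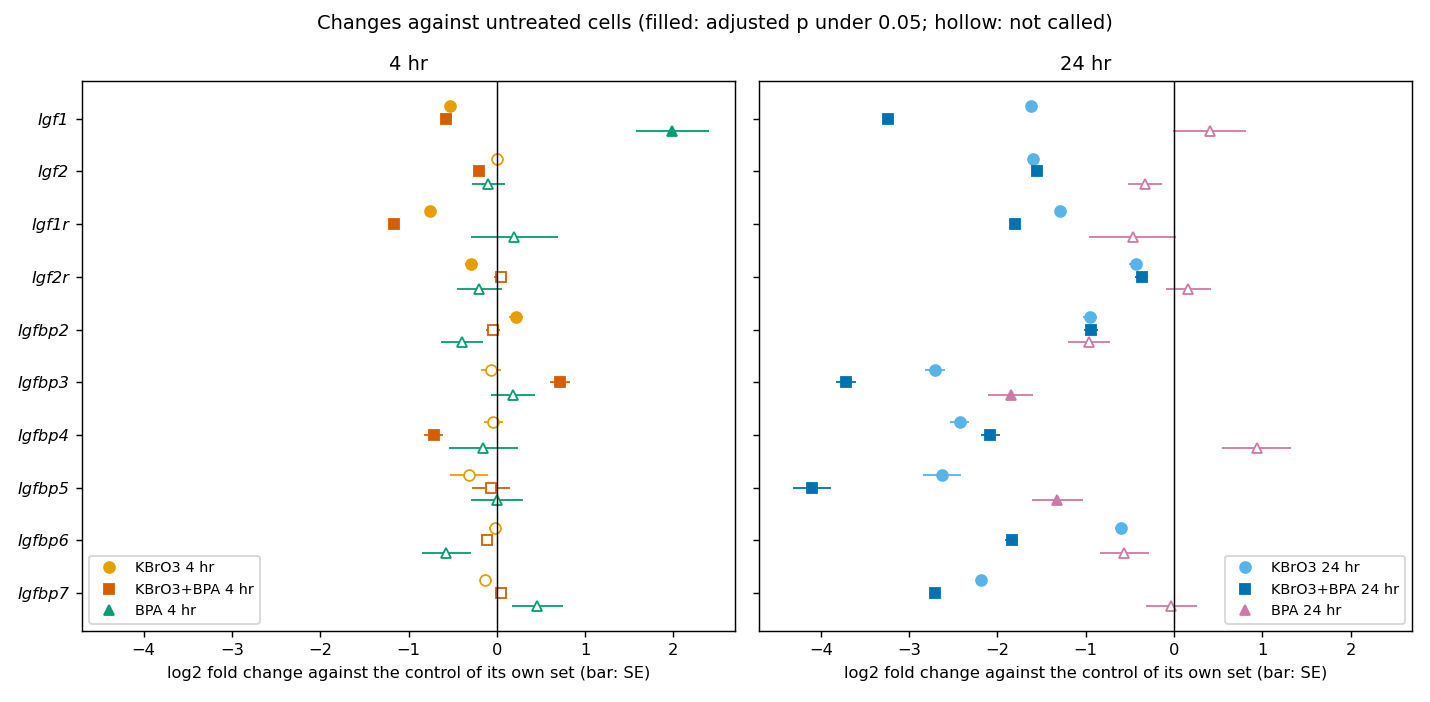
Log2 fold change of each gene against the controls of its own array set (x axis, bars are standard errors, n = 3 arrays per group) at 4 hr (left) and 24 hr (right) for KBrO3 alone, co-exposure and BPA alone. Filled symbols have an adjusted p under 0.05. At 4 hr values lie between −1.16 for Igf1r after co-exposure and 1.99 for Igf1 after BPA alone, and at 24 hr every value of KBrO3 alone and co-exposure is filled and below 0.

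Between 4 hr and 24 hr of KBrO3 alone 9 of 10 members fell, beside 43.1% of gene names called lower and 75.6% called in either direction, and Igf2r was at −0.14 (limma adjusted p = 0.0956). Between 4 hr and 24 hr of co-exposure all 10 fell, beside 49.1% lower and 82.6% in either direction. The group medians of these differences were −1.38 and −1.55, beside −0.14 and −0.24 over all gene names. The Igf1r fall of KBrO3 alone turned to a rise of 0.11 with the mean of its probes (limma adjusted p = 0.0162). The Igf2r difference of co-exposure turned to 0.05 when arrays were scaled to their medians. In neither treatment did a 4 hr array share a slide with a 24 hr array, so slide and time are not separated in these differences.

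Co-exposure differed from KBrO3 alone in several members, with opposite signs at the 2 times for some. At 4 hr all arrays of KBrO3 alone lay on one slide and all co-exposed arrays on another, so slide and BPA cannot be told apart at 4 hr or, through it, in the change of the difference with time. In direct comparison, 7 of 10 members differed at 4 hr (3 higher, 4 lower), beside 59.1% of gene names (28.8% higher, 30.3% lower), and 7 of 10 at 24 hr (1 higher, 6 lower), beside 47.6% (24.9% higher, 22.8% lower). With normexp 2 of these calls remained at 4 hr (Igfbp3 and Igfbp4) and 4 at 24 hr (Igf1, Igf1r, Igfbp3 and Igfbp6). At 4 hr, Igfbp3 was higher by 0.78 ± 0.12, Igf2r by 0.34 and Igfbp7 by 0.18 (limma adjusted p = 0.000139, 0.00222 and 0.0217). The second Igfbp3 probe, well above background on all 6 of these arrays, gave 0.19 ± 0.27 and was not called (0.56). In the same comparison Igfbp4 was lower by a log2 fold change of −0.67, Igf1r of −0.40, Igfbp2 of −0.26 and Igf2 of −0.20 (the largest of their limma adjusted p was 0.0135), while Igf1, Igfbp5 and Igfbp6 were at −0.04, 0.25 and −0.10 (0.54, 0.334 and 0.25). The Igf2r difference was 0.20 and not called with arrays scaled to their medians (limma adjusted p = 0.0729). The Igfbp7 difference was not called without the first or the third KBrO3 array or the third co-exposed array (limma adjusted p = 0.0511, 0.059 and 0.0747), nor that of Igfbp2 without the first co-exposed array (0.0519). With slide as a random block the Igfbp2 and Igfbp7 differences at 4 hr were not called (limma adjusted p = 0.108 and 0.0549). This left 5 members, beside 6910 of 18443 gene names.

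At 24 hr Igf1 carried the largest measured difference between the treatments, 3.08-fold lower with BPA than without (log2 fold change −1.62, limma adjusted p = 1.73e-09). Igfbp6 was lower by −1.24, Igfbp3 by −1.01, Igfbp7 by −0.53 and Igf1r by −0.50 on the log2 scale (limma adjusted p = 5.57e-08, 1.99e-05, 1.49e-05 and 1.44e-05). The second Igfbp3 probe gave −0.61 and was not called (0.0826). Igfbp5 had a fitted difference of −1.47 (limma adjusted p = 0.000145), but with 1 of 6 arrays well above background no fold could be given. Igfbp4 was the 1 member that was higher with BPA, by 0.34 (limma adjusted p = 0.0203). That call was lost without the first array of KBrO3 alone (0.0857) or without the first or the second co-exposed array (0.0717 and 0.0877), and with normexp (0.28) or only the arrays compared (0.133), and the second Igfbp4 probe gave 0.04 (0.646). Igf2, Igf2r and Igfbp2 were at 0.04, 0.07 and 0.01 (limma adjusted p = 0.496, 0.47 and 0.944). One slide held 2 arrays of each 24 hr treatment, and within it the differences were −1.56 for Igf1, −1.18 for Igfbp6, −1.19 for Igfbp3, −0.57 for Igfbp7, −0.56 for Igf1r and 0.36 for Igfbp4.

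**Figure D3:**
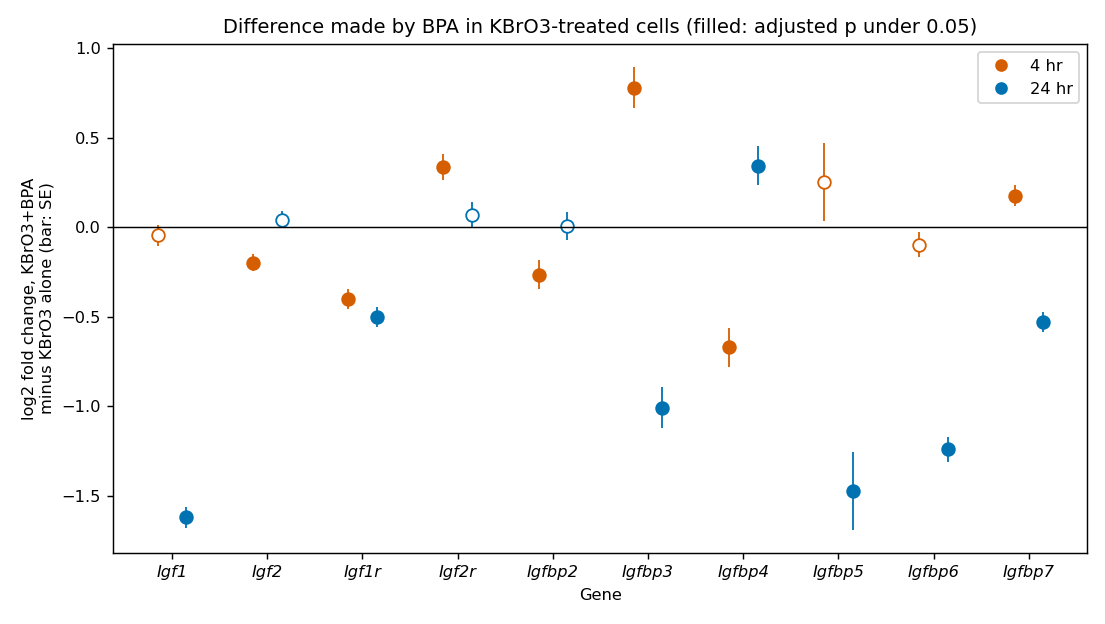
Log2 difference between co-exposure and KBrO3 alone for the brightest probe of each gene (y axis, bars are standard errors, n = 3 against 3 arrays) at 4 hr and 24 hr, filled where the adjusted p was under 0.05. Igfbp3 and Igfbp7 lie above 0 at 4 hr and below 0 at 24 hr, and Igfbp4 the reverse.

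Whether the difference between co-exposure and KBrO3 alone changed with time was tested with the interaction term of the same fit, which passed for 8 of 10 members (2 higher, 6 lower), beside 55.8% of gene names (27.8% higher, 28.0% lower). With normexp 4 of these calls remained (Igf1, Igfbp3, Igfbp4 and Igfbp6). For the brightest probe of Igfbp3 the difference between co-exposure and KBrO3 alone went from 0.78 at 4 hr to −1.01 at 24 hr, for Igfbp7 from 0.18 to −0.53 and for Igfbp4 from −0.67 to 0.34. The second Igfbp3 probe went from 0.19 to −0.61, neither called, and its interaction of −0.81 ± 0.38 was not called either (limma adjusted p = 0.0933). The second Igfbp4 probe went from −0.23 to 0.04, the latter not called, with an interaction of 0.28 (limma adjusted p = 0.0348) beside 1.01 for the brightest. For Igf1, Igfbp5 and Igfbp6 it was not called at 4 hr and was lower at 24 hr. For the brightest Igf1r probe it was −0.40 and −0.50, and the interaction was −0.10 (limma adjusted p = 0.28). The other Igf1r probes differed from it and from each other, with −0.83 and −0.35 for the probe of the RefSeq transcript (interaction 0.48, limma adjusted p = 0.00221), −0.20 and −0.60 for the probe named D930020L01 (−0.40, 0.00251) and 0.30 and −0.44 for the probe of a cDNA clone (−0.73, 0.000125). For Igfbp2 the interaction was 0.27 (0.0585). With slide as a random block 7 members passed, without Igf2r (0.0877), beside 7828 of 18443 gene names.

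BPA alone altered few members in the second set. At 4 hr 1 of 10 rose, beside 4.24% of 21455 gene names called (2.77% higher, 1.47% lower), and at 24 hr 2 of 10 fell, beside 3.65% (1.5% higher, 2.15% lower). The members' median was −0.05 at 4 hr and −0.40 at 24 hr, beside −0.03 and 0.00 over all gene names.

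The member that rose at 4 hr of BPA alone was Igf1. Its control arrays in this set read −0.20, −1.68 and −1.36, the 4 hr arrays 0.76, 0.89 and 1.08 and the 24 hr arrays −1.21, −0.83 and 0.01. All 4 hr arrays were above all controls, and the 24 hr arrays overlapped the controls, whose first array stood well above the others. Igf1 was 3.97-fold higher at 4 hr (log2 fold change 1.99 ± 0.41, limma adjusted p = 0.0306), and its other probes gave 2.14 (0.0307) and 1.97 (0.134). Leaving out any of the 3 BPA arrays or either of the 2 lower control arrays lost the call (limma adjusted p = 0.0899, 0.103, 0.132, 0.0991 and 0.105). On the slide that held 2 of these BPA arrays and 1 control array the difference was 1.12. Over the settings that kept all arrays of the comparison the limma adjusted p ran from 0.018 with arrays scaled to their medians to 0.558 with the normexp correction. The value of Igf1 at 24 hr was 0.40 (limma adjusted p = 0.655).

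Igfbp3 and Igfbp5 fell at 24 hr of BPA alone. For Igfbp3 the controls read 1.00, 0.89 and 1.10, the 4 hr arrays 1.15, 1.00 and 1.37 and the 24 hr arrays −1.38, −0.71 and −0.48. The 24 hr arrays were all below the others, and the 4 hr arrays overlapped the controls. The fall was 3.61-fold (log2 fold change −1.85 ± 0.25, limma adjusted p = 0.00729), and the second probe was at −1.43 (0.14). On 2 slides that each held 1 control and 1 BPA array at 24 hr, the Igfbp3 difference was −2.28 and −1.81. The call was lost with the normexp correction (limma adjusted p = 0.165), with slide as a fixed block (0.0769) and at the methods' thresholds, and was kept in the other settings tried, each array left out in turn included.

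Igfbp5 was well above background on all arrays of the second set. The controls read −0.81, −0.75 and −0.07, the 4 hr arrays −0.46, −0.73 and −0.43 and the 24 hr arrays −2.38, −1.78 and −1.44, so that the 24 hr arrays did not overlap the rest. The fall at 24 hr was 2.50-fold (log2 fold change −1.32 ± 0.29, limma adjusted p = 0.0434), and on the same 2 slides the differences were −1.63 and −1.70. Leaving out single arrays gave limma adjusted p between 0.0703 and 0.109 in 8 of 9 cases, so this call rested on the full set of arrays. It was also lost with arrays scaled to their medians (limma adjusted p = 0.0652), with the mean of its probes (0.167), with no filter (0.0703), with normexp (0.431), with the replicate block (0.0507) and with only the arrays compared (0.142). Its second probe was at −0.07 (0.937). The same 2 members fell between 4 hr and 24 hr of BPA alone (log2 fold change −2.03 and −1.32, limma adjusted p = 0.00387 and 0.0407), beside 3.98% of gene names called and 2.92% called lower. Igfbp3 kept this call in 9 of 9 fits without 1 array and Igfbp5 in 3 of 9 (limma adjusted p up to 0.155).

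The other members were not called after BPA alone. The values of Igfbp2 were −0.39 after 4 hr and −0.97 after 24 hr (limma adjusted p = 0.421 and 0.0638), and without the second 24 hr array the 24 hr value was −1.19 (0.0469). Igfbp4 was at −0.15 and 0.94 (limma adjusted p at 24 hr 0.247), and its 24 hr arrays of 1.18, 2.19 and 2.28 overlapped the controls of 0.84, 0.53 and 1.48. Igf1r had a wide spread, with control arrays at 1.96, 0.43 and 1.5 and 24 hr arrays at 1.78, 0.07 and 0.63. For Igf2, Igf2r, Igfbp6 and Igfbp7 the values lay between −0.57 (Igfbp6) and 0.46 (Igfbp7) at 4 hr and between −0.56 (Igfbp6) and 0.16 (Igf2r) at 24 hr.

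Where a gene had several probes they were compared within the first set. The Igf1 probe spotted several times on the array followed the brightest one, with log2 fold changes of −0.48 and −0.56 at 4 hr and −1.67 and −3.41 at 24 hr for KBrO3 alone and co-exposure. The dimmest Igf1 probe read −4.34, −4.16 and −4.21 in untreated cells and no array of the 4 treated groups read it well above background, so it gave bounds of at least 1.93-fold and 2.30-fold lower at 4 hr and at least 2.57-fold and 2.03-fold lower at 24 hr. Both Igf2 probes fell at 24 hr, and at 4 hr of KBrO3 alone the second Igf2 probe was higher by 0.20 (limma adjusted p = 0.00174) where the brightest gave 0.00. At 4 hr of co-exposure it gave 0.08 (0.119) where the brightest fell by 0.20. The second probe of Igfbp4 gave −1.82 and −1.78 at 24 hr for KBrO3 alone and co-exposure, and its fall at 4 hr of co-exposure was −0.33 (limma adjusted p = 0.000917) where the brightest gave −0.71.

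The second Igfbp3 probe fell by 2.28 on the log2 scale at 24 hr of KBrO3 alone, with all 3 arrays well above background. After co-exposure its fitted value was −2.89, with 1 of 3 arrays well above background. Its value at 4 hr of co-exposure was 0.19 (limma adjusted p = 0.541) where the brightest gave 0.71. On mm7 the brightest Igfbp3 probe is at chr11:7158599-7158658 and the second spans chr11:7160474-7161483, longer than its 60 bases, so the second covers an exon junction. The dim second Igfbp5 probe read 0.59 at 4 hr of KBrO3 alone (limma adjusted p = 0.144) and was well above background on none of the arrays of both 24 hr groups.

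Igf1r had 4 probes, and all 4 fell in all 4 treatments of the first set, with courses in time that differed between them. The brightest, named for the clone A330103N21Rik, lies at chr7:64088091-64088150 on mm7, the probe of the RefSeq transcript at chr7:64082649-64082708, one named D930020L01 at chr7:64083593-64083652 and one designed on a cDNA clone at chr7:64043608-64043667, upstream of the others. The RefSeq transcript probe gave −0.59 and −1.42 at 4 hr and −1.19 and −1.54 at 24 hr for KBrO3 alone and co-exposure. The D930020L01 probe had means of −2.24 at 4 hr and −2.28 at 24 hr of KBrO3 alone, so it was nearly level there. The upstream probe was lowest at 4 hr, with controls at −1.43, −1.37 and −1.36, KBrO3 alone at −4.02, −4.21 and −4.29 at 4 hr and at −2.56, −2.65 and −2.46 at 24 hr. Between 4 hr and 24 hr of KBrO3 alone this probe rose by 1.62 ± 0.07 (limma adjusted p = 9.6e-10) and after co-exposure by 0.88 (2.3e-07), while the brightest fell in both. Which transcript this upstream probe reads was not given in the sources used here.

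**Figure D4:**
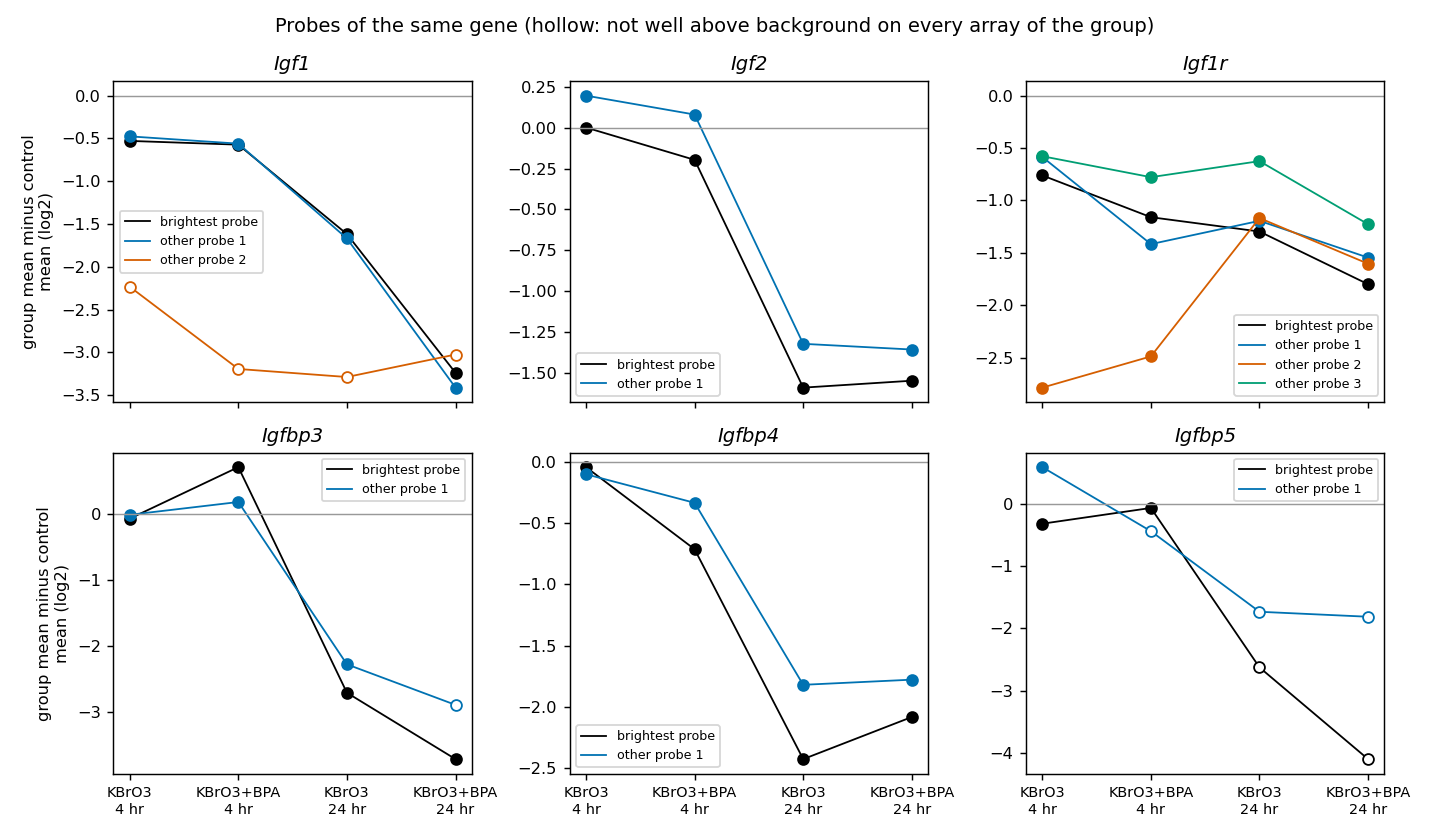
Group mean minus control mean (y axis, log2) of every probe of the 6 genes with several probes, for the 4 treatments of the first array set, with hollow points where the probe was not well above background on every array of the group. All probes lie below 0 at 24 hr, and the upstream Igf1r probe is at −2.79 at 4 hr of KBrO3 alone and −1.17 at 24 hr.

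Genes that handle the binding proteins outside the cell were described from a list of 8, of which 4 could be tested in the first set. Pappa, the protease that cuts IGFBP4, fell in all 4 treatments, by 0.53 and 0.75 at 4 hr and by 1.92 and 2.12 at 24 hr on the log2 scale for KBrO3 alone and co-exposure (limma adjusted p between 5.36e-08 and 3.68e-13). Stc1, a secreted inhibitor of PAPP-A, was at 0.23 and 0.61 at 4 hr, of which the second was called but was −0.70 with the normexp correction. At 24 hr no array read Stc1 well above background, and it was at least 2.10-fold and 1.66-fold lower. Stc2, the related inhibitor, rose by 0.41 at 4 hr of KBrO3 alone and was at 0.03 and 0.00 at 24 hr. Htra1, a secreted serine protease, fell by 1.09 and 1.66 at 24 hr. In all, 1 rose and 1 fell of 4 at 4 hr of KBrO3 alone, 2 rose and 2 fell after co-exposure, and 3 fell at 24 hr of each, beside 71.1%, 78.7%, 66.3% and 70.2% of gene names called in either direction. The rises of Stc1 and Stc2 at 4 hr of co-exposure were not called with quantile normalization, median scaling or normexp, and the value of Stc2, 0.13, was −0.01 with median scaling. Igfbp1 and Igfbpl1 were not bright enough to be tested, and Igfals and Pappa2 only in the second set, where neither was called. Of the 6 tested after BPA alone none was called at 4 hr with limma (2 at an unadjusted p under 0.05), and at 24 hr Stc2 rose by 0.86 (limma adjusted p = 0.0493).

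Of 13 related receptors and adaptors tested, 5 rose and 5 fell at 4 hr of KBrO3 alone, 6 and 6 after co-exposure, 2 and 7 at 24 hr of KBrO3 alone and 3 and 6 after co-exposure, beside 71.1%, 78.7%, 66.3% and 70.2% of all gene names called. At 24 hr the counts were 5 and 6 for KBrO3 alone with quantile normalization and 5 and 5 for co-exposure with median scaling, so this balance too rests on the scaling. The insulin receptor Insr fell most at 4 hr of KBrO3 alone, by 2.15 ± 0.16 (4.43-fold, limma adjusted p = 8.6e-08), and by 1.69 after co-exposure, and was at −0.87 and −1.03 at 24 hr. The substrate Irs1, which links IGF1R and the insulin receptor to PI3K, fell in all 4 treatments, by 1.03 and 0.74 at 4 hr and by 1.06 and 1.55 at 24 hr. Grb14, an inhibitory adaptor of the insulin receptor, fell most of the list at 24 hr, 4.28-fold and 7.86-fold (limma adjusted p = 2.13e-11 and 6.18e-13). Socs2, an inhibitor of growth hormone signalling, rose most at 24 hr, 3.59-fold and 5.35-fold (limma adjusted p = 3.84e-08 and 2.31e-09). The adaptor Grb2 rose most of the list at 4 hr of KBrO3 alone, by 0.78, and the insulin receptor-related receptor Insrr at 4 hr of co-exposure, by 1.58 (−0.28 with the normexp correction). Grb10, another inhibitory adaptor, rose by 0.28 and 0.44 at 4 hr, the first not called with quantile normalization (0.05). After BPA alone at 4 hr the phosphatase Ptpn1 rose by 1.00 and Grb14 fell by 1.27 (limma adjusted p = 0.0261 and 0.0243), and at 24 hr none of the 13 was called with limma (1 had an unadjusted p under 0.05). Irs2 was not analysed here, because no probe name matched it.

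Of 17 genes of the PI3K, AKT, TOR and FOXO pathway downstream of IGF1R, 7 rose and 5 fell at 4 hr of KBrO3 alone, 6 and 4 after co-exposure, 9 and 6 at 24 hr of KBrO3 alone and 7 and 6 after co-exposure, beside 71.1%, 78.7%, 66.3% and 70.2% of all gene names called. With arrays scaled to their medians co-exposure gave 4 higher and 6 lower at 4 hr and 10 higher and 3 lower at 24 hr, so the balance of directions rests on the scaling. Foxo1, a transcription factor that AKT keeps out of the nucleus, rose most at 4 hr, 3.34-fold and 2.12-fold (limma adjusted p = 1.56e-11 and 7.67e-10). At 24 hr Foxo1 was 0.16 above control for KBrO3 alone and 0.36 below after co-exposure (both called, the latter with neither median scaling, −0.04, nor normexp, −0.11). The regulatory PI3K subunit Pik3r2 fell most at 4 hr, by 1.08 and 1.46, and Pik3r1 fell by 1.22 and 1.38 at 24 hr, where Foxo4, with 1 of 3 arrays well above background, had a fitted difference of −1.58 for KBrO3 alone. After BPA alone 1 of the 17 was called at 4 hr, Pik3r2 with a fall of 0.99 (limma adjusted p = 0.022), and at 24 hr none, with 0 of the 17 at an unadjusted p under 0.05 in limma.

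Of the 4 genes of the Igf2 locus and of Igf2 mRNA binding, 3 rose at 4 hr of KBrO3 alone, 2 rose and 1 fell after co-exposure, 1 rose at 24 hr of KBrO3 alone and 2 after co-exposure, beside the same 71.1%, 78.7%, 66.3% and 70.2%. H19, the imprinted noncoding RNA next to Igf2, rose by 0.93 and 1.10 at 4 hr and was at 0.22 and 0.00 at 24 hr, when Igf2 was lowest. With the normexp correction the 4 hr values of H19 were −0.42 and −0.33. Igf2bp1, whose protein binds Igf2 mRNA, rose in all 4 treatments, by 0.57 and 0.77 at 4 hr and 0.99 and 0.83 at 24 hr. Igf2bp2 rose by 0.60 at 4 hr of KBrO3 alone (not called with quantile normalization or median scaling) and by 0.79 at 24 hr of co-exposure, and Igf2bp3 fell by 0.71 at 4 hr of co-exposure. None of the 4 was called with limma after BPA alone at either time, and none had an unadjusted p under 0.05. The calls of Grb14, Ptpn1 and Pik3r2 at 4 hr and of Stc2 at 24 hr of BPA alone were lost with arrays scaled to their medians and with normexp. These partner genes were chosen with earlier results of these data known.

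**Figure D5:**
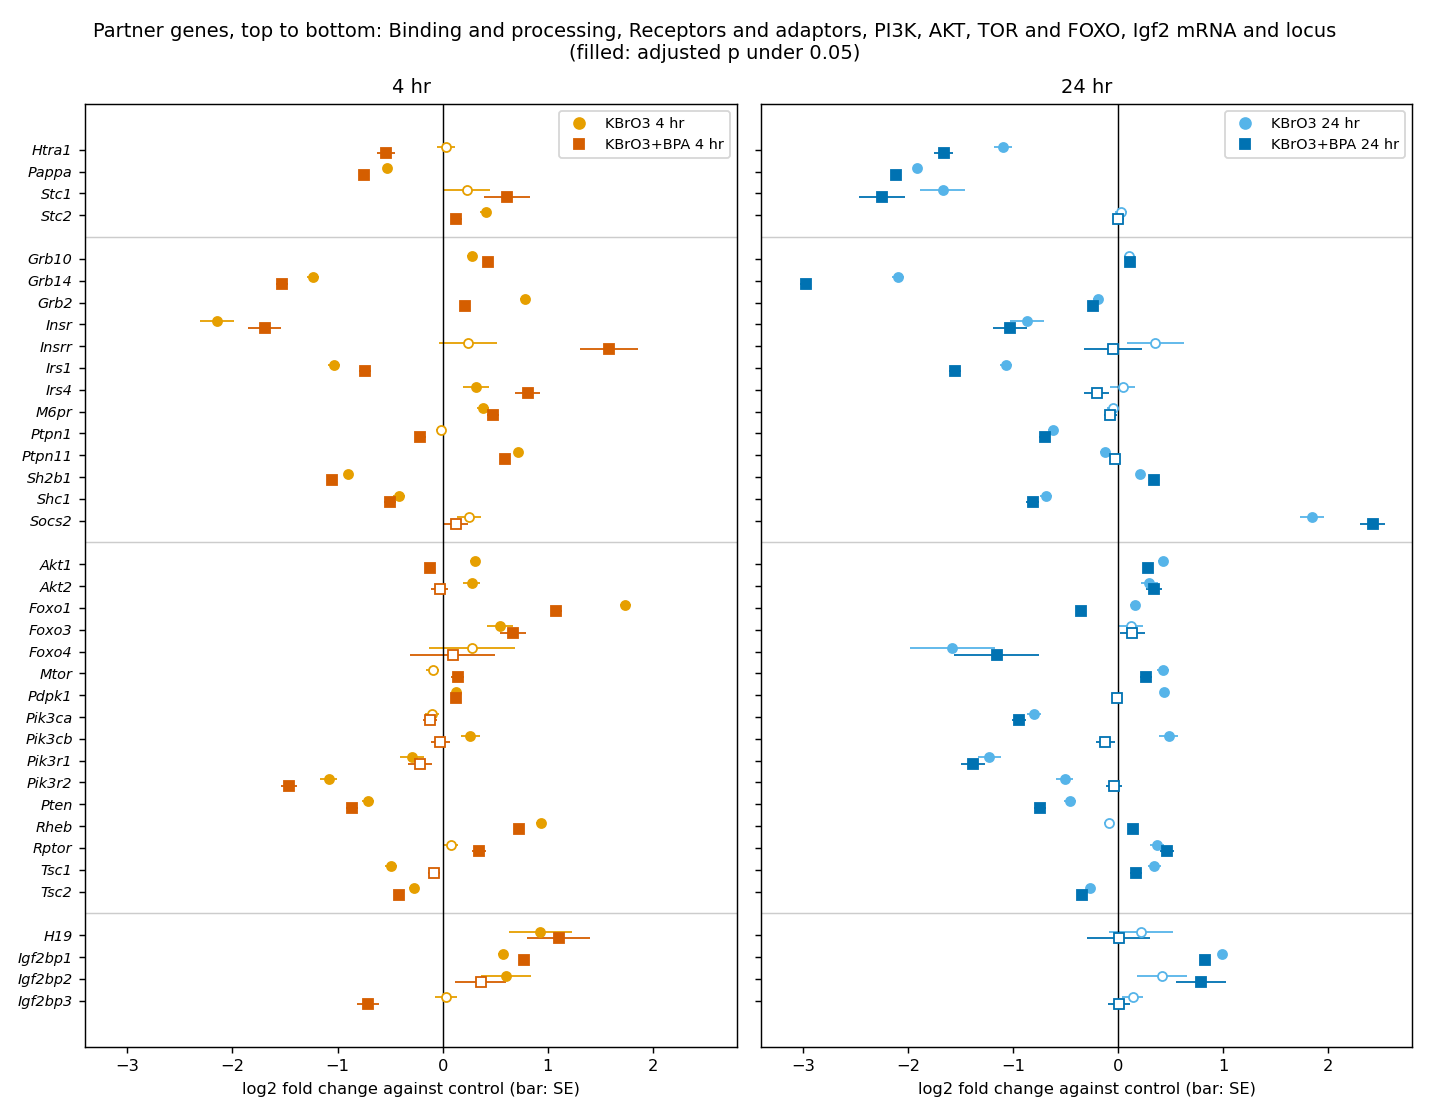
Log2 fold change against the first set's controls (x axis, bars are standard errors, n = 3 arrays per group) of partner genes at 4 hr (left) and 24 hr (right), for KBrO3 alone and co-exposure, filled where the adjusted p was under 0.05. Insr, Irs1, Pappa and Grb14 lie below 0 in both panels, and Socs2 moves from 0.25 and 0.13 at 4 hr to 1.84 and 2.42 at 24 hr.

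The transcripts most like Igfbp3, Igfbp5, Igf1 and Igfbp7, the members with the widest spans of group means, were found by Pearson correlation over the 15 arrays of the first set among 10950 named genes, and the same correlation over the 9 arrays of the second set was set beside it. The arrays of a set share treatments, slides and scaling, so these values only describe likeness. The span was 4.43 for Igfbp3, 3.24 for Igf1 and 2.75 for Igfbp7, and a fitted 4.10 for Igfbp5, whose place among them rests on 24 hr values that were mostly not well above background. Igfbp3 was followed by Bmp6, Fzd1 and Cfb (r = 0.997, 0.995 and 0.992), of which only Fzd1 had a similar value in the second set (0.911, against −0.22 and −0.35). Igfbp5 was followed by Gng12, Postn and Dpt (r = 0.992, 0.99 and 0.99), with 0.506, 0.8 and 0.965 in the second set. Igf1 was followed by Agtr2, Slc14a1 and Itga11 (r = 0.997, 0.996 and 0.995), with 0.156, 0.06 and 0.864 in the second set. Igfbp7, given because of the dim Igfbp5 values, was followed by Cfb, Serping1 and Lifr (r = 0.998, 0.997 and 0.997), with 0.452, 0.311 and 0.459.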

How the data were processed

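Total RNA of 24 samples was labelled with Cy3 and hybridised to Agilent Whole Mouse Genome 4 × 44 1-colour arrays. The authors deposited the scanner output of Agilent Feature Extraction (12.0 in the submitters' notes; 9.5.3.1 in the file headers of the first set and 12.0.0.7 in those of the second), and the values used are its processed signal intensity, background-subtracted by that software. The deposited series table held the same intensity in 1080432 of 1080432 values compared. Each array's log2 intensity, with control spots left out, was set relative to its 75th percentile and fitted per array set with limma 3.58.1 (lmFit, eBayes) in R 4.3.3, 1 coefficient per group. A probe was tested where all 3 arrays of some group read it well above background (27310 and 31809 probes), p was adjusted by Benjamini-Hochberg over all of them, and a gene was called at an adjusted p under 0.05, two-sided, in 12 comparisons. With 3 arrays per group, the number of arrays limits the precision.

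Where a group read a probe on no array well above background, the fold is a bound against the dimmest signal that was. Each member was named in every comparison. Partner genes were named by a fixed list, plus the called gene of each list with the largest rise and fall at each time. Members and lists were chosen with earlier results of these data known. Replicate numbers were not used as pairs in the main fit. Of the first set's treatments only 4 hr of KBrO3 alone shared a slide with a control array, so for the others slide and treatment cannot be told apart when set against controls. At 4 hr KBrO3 alone and co-exposure lay on different slides. Alternatives were other scalings (medians, quantile), the normexp background correction with an offset of 50, no or a stricter filter on dim probes, the mean of all probes of a gene, error weights, slide as a block, a replicate block, fits of only the arrays compared, the methods' thresholds, and leaving out each array. Scripts were tested on simulated data. Sequences came from the scanner files and from RefSeq tables on GRCm38.p6, where all 10 members had a promoter window. Figures used Matplotlib 3.10.9. 1 partner gene is counted but, with its values, not reported or plotted here.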

Additional observations from a re-analysis of the deposited data

Results flagged for a closer look

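The difference between co-exposure and KBrO3 alone changed between 4 hr and 24 hr for 8 members, beside 55.8% of 18443 gene names. The test was the interaction term in limma over all tested probes (24 hr difference minus 4 hr difference, log2). It was −1.58 ± 0.08 (SE) for Igf1, −1.79 ± 0.16 for Igfbp3, −1.73 ± 0.31 for Igfbp5, −1.14 ± 0.10 for Igfbp6 and −0.71 ± 0.08 for Igfbp7 (limma adjusted p = 1.17e-07, 5.64e-06, 0.000621, 3.84e-06 and 3.55e-05). The second Igfbp3 probe gave −0.81 ± 0.38 and the dim second Igfbp5 probe 0.95 ± 0.49, neither of them called (limma adjusted p = 0.0933 and 0.12). It was 1.01 ± 0.15 for Igfbp4 (0.28 for its second probe) and 0.24 ± 0.07 for Igf2 (0.000204 and 0.0112), whose second probe gave 0.08 and was not called (limma adjusted p = 0.301). For Igf2r it was −0.27 ± 0.11 (limma adjusted p = 0.0476), a call that was lost in 13 of the fits without 1 array (0.0511 to 0.113) and a value that was 0.04 with arrays scaled to their medians. The Igfbp5 value includes a 24 hr group that no array read well above background. At 4 hr the treatments lay on different slides, so slide and BPA cannot be told apart in these values.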

How the results depend on the processing

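Of the counts of members called, those at 24 hr of KBrO3 alone and of co-exposure stayed at 10 when any 1 array was left out. The methods' thresholds gave 8 and 9 for these, and with normexp Igf2r was called in neither. The other ranges without 1 array were 3 to 5 for KBrO3 alone at 4 hr, 5 to 5 for co-exposure at 4 hr, 6 to 7 and 6 to 8 for co-exposure against KBrO3 alone at 4 hr and 24 hr, 9 to 10 and 10 to 10 for 24 hr against 4 hr of KBrO3 alone and of co-exposure, 7 to 10 for the interaction, and 0 to 1, 1 to 2 and 1 to 3 for BPA alone at 4 hr, at 24 hr and between them. The methods' thresholds gave 1 at 4 hr of KBrO3 alone and 1 of co-exposure, 0 and 2 for co-exposure against KBrO3 alone at 4 hr and 24 hr, 3 for the interaction and 0 for all BPA alone comparisons. Normexp gave 2, 4 and 4 for co-exposure against KBrO3 alone at 4 hr, at 24 hr and for the interaction, and 0 for BPA alone, as did slide as a fixed block. For BPA alone, median scaling and the mean of probes gave 1 at 24 hr and 1 between times, no filter 0, 1 and 1, and only the arrays compared 1 at 24 hr.

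The deviations of same-numbered arrays correlated at a mean of −0.03 (−0.21 to 0.106) in the first set and 0.00 (−0.38 to 0.648) in the second. With 3 arrays per group these values are too few to show whether the numbers pair the arrays. With the replicate block, BPA alone gave 0 members at 4 hr and 1 at 24 hr, and 117 of 120 single values kept their call.

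Values that turned sign with a call in at least 1 of the settings were Igf1r between times of KBrO3 alone (0.11, mean of probes), Igf2 at 4 hr of KBrO3 alone (−0.16, quantile) and of co-exposure (0.0243, normexp), Igf2r for the interaction (0.0429, medians) and between times of co-exposure (0.0475, medians), Igfbp2 at 4 hr of KBrO3 alone (−0.0097, quantile) and Igfbp7 at 4 hr of co-exposure (−0.25, quantile). The cause was not tested. Values called in neither setting also turned sign, among them Igf1r and Igfbp4 at 4 hr of BPA alone without single arrays (−0.24 to 0.53 and −0.36 to 0.16).

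Over all gene names, normexp moved the median log2 fold change by −0.469 and −0.465 at 4 hr and by −0.37 and −0.323 at 24 hr of KBrO3 alone and co-exposure. Scaling arrays to their medians moved it by up to 0.46 (24 hr against 4 hr of co-exposure) and raised the share of calls that were higher from 44.7% to 57.1% at 24 hr of KBrO3 alone and from 44.8% to 65.8% at 24 hr of co-exposure, where all 10 members were called lower in the main setting and 9 with this scaling. For co-exposure against KBrO3 alone that share went from 48.7% to 32.2% at 4 hr and from 52.2% to 74.7% at 24 hr, for the interaction from 49.9% to 76.7%, and for 24 hr against 4 hr of co-exposure from 40.6% to 61.3% (51.5% with quantile normalization, which for KBrO3 alone gave 54.5% beside 43%). With normexp it was 29.7% at 24 hr of KBrO3 alone, 32.7% at 24 hr and 40.1% beside 51.3% at 4 hr of co-exposure, and 100% beside 65.3% at 4 hr of BPA alone. Beside 910, 783 and 854 gene names called for BPA alone at 4 hr, 24 hr and between them, the replicate block gave 454, 383 and 538, median scaling 590 and 515 for the first and the second, only the arrays compared 159 at 24 hr, normexp 15, 0 and 0, the methods' thresholds 19, 5 and 9 and slide as a fixed block 0 in each. Normexp gave 2483 beside 10906, 2287 beside 8786 and 1878 beside 10294 for co-exposure against KBrO3 alone at 4 hr, at 24 hr and the interaction, and 7798 beside 13936 and 8373 beside 15240 for 24 hr against 4 hr of KBrO3 alone and of co-exposure. Slide as a random block gave 6910 beside the 10906. The methods' thresholds gave 5405 and 3281 for KBrO3 alone at 4 hr and 24 hr (beside 13112 and 12234), 6135 and 3966 for co-exposure (beside 14506 and 12953), 1012 and 1231 for co-exposure against KBrO3 alone, 5077 and 5817 for 24 hr against 4 hr and 826 for the interaction.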
